A study of Mus musculus with 2 samples.

Results

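Genes of the lateral plate, the intermediate mesoderm and kidney, the hindlimb and limb, and the allantois and placenta were read in posterior tissue of mouse embryos that carry reduced Cdx function. The set was given by name and held 35 genes, of which 12 are placed here with the lateral plate, 11 with the intermediate mesoderm and kidney, 10 with the limb and 2 with the allantois and placenta. A probe was matched to 34 of them, and all 34 were detected, among 25933 genes detected of 32839 on the array. Detected means that the scanner software called the signal well above background in the same genotype on both arrays. The mutant was Cdx2+/-Cdx4-/-, so it kept 1 intact Cdx2 allele and lacked Cdx4, and the other group was wildtype. Both were taken at 13 somites, and the posterior part was cut at a matched axial level, set by the last somite boundary. Tissue of 7 embryos was pooled per genotype, and the sources used here name neither strain nor embryo sex. Both pools were hybridised together on each of 2 dual-colour arrays, with the mutant in Cy5 on array 1 and in Cy3 on array 2. The labels describe 1 pool per genotype and a dye swap, and do not say whether both arrays took the same RNA extracts. The arrays were treated as repeats of that 1 pool, so no p-value is given, and each error is the SD between the 2 arrays.

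The names in the files needed care. Foxf1a is now Foxf1, and Meis2 is listed as Mrg1. The probe that the files call Osr1 lies on chromosome 9 and belongs to an oxidative-stress responsive kinase gene, now Oxsr1. The odd-skipped gene Osr1 of the intermediate mesoderm is listed as Odd1 on chromosome 12, and that probe was used. Ret, the receptor of the Gdnf signal, had no matching probe and was not analysed here. Probe positions below are the files' own, and the sources used here name no genome build for them.

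As background, the mesoderm beside the midline divides into strips. The paraxial strip forms somites, the intermediate strip forms the kidney and the urogenital ducts, and the lateral plate forms the body wall, the gut wall, the heart and the limb buds. The allantois grows from the posterior end of the embryo and later forms the umbilical vessels. Cdx proteins are homeodomain transcription factors of the posterior embryo that act on Hox genes and on axial growth.

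On the arrays as a whole, between 77.4% and 82.5% of gene spots were well above background in each channel. The SD between the arrays, pooled over all detected genes, was 0.19 on the log2 scale. It was 0.21 for 11026 dim genes with a mean log2 intensity below 7. Cdx4, the deleted gene, had a log2 ratio of mutant over wildtype of -2.52 ± 0.12. The posterior markers T, Tbx6 and Cdx2 were detected. Cdx2, of which the mutant kept 1 intact allele, had 0.02 on array 1 and -0.12 on array 2 (mean -0.05 ± 0.09).

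Of the 34 detected genes, Meis1 rose and Plac1 fell by at least 1.5-fold on each array, and 32 did not pass this size rule. Over all detected genes 0.440% passed, 0.208% as higher and 0.231% as lower. At 1.3-fold on each array Foxf2 and Pitx1 were also lower and no other member was higher, against 0.748% of all genes lower and 0.536% higher. The ratio lay below 0 on both arrays for 15 members and above 0 on both for 7, against 24.5% and 23.3% of all detected genes. The median over the members was -0.08, and over all detected genes it was 0.00 to 2 decimals. The lists differed in their medians, with -0.22 for the lateral plate, 0.03 for the intermediate mesoderm and kidney, and 0.03 for the limb. These medians describe the lists, and no test of their difference was possible.

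**Figure D1:**
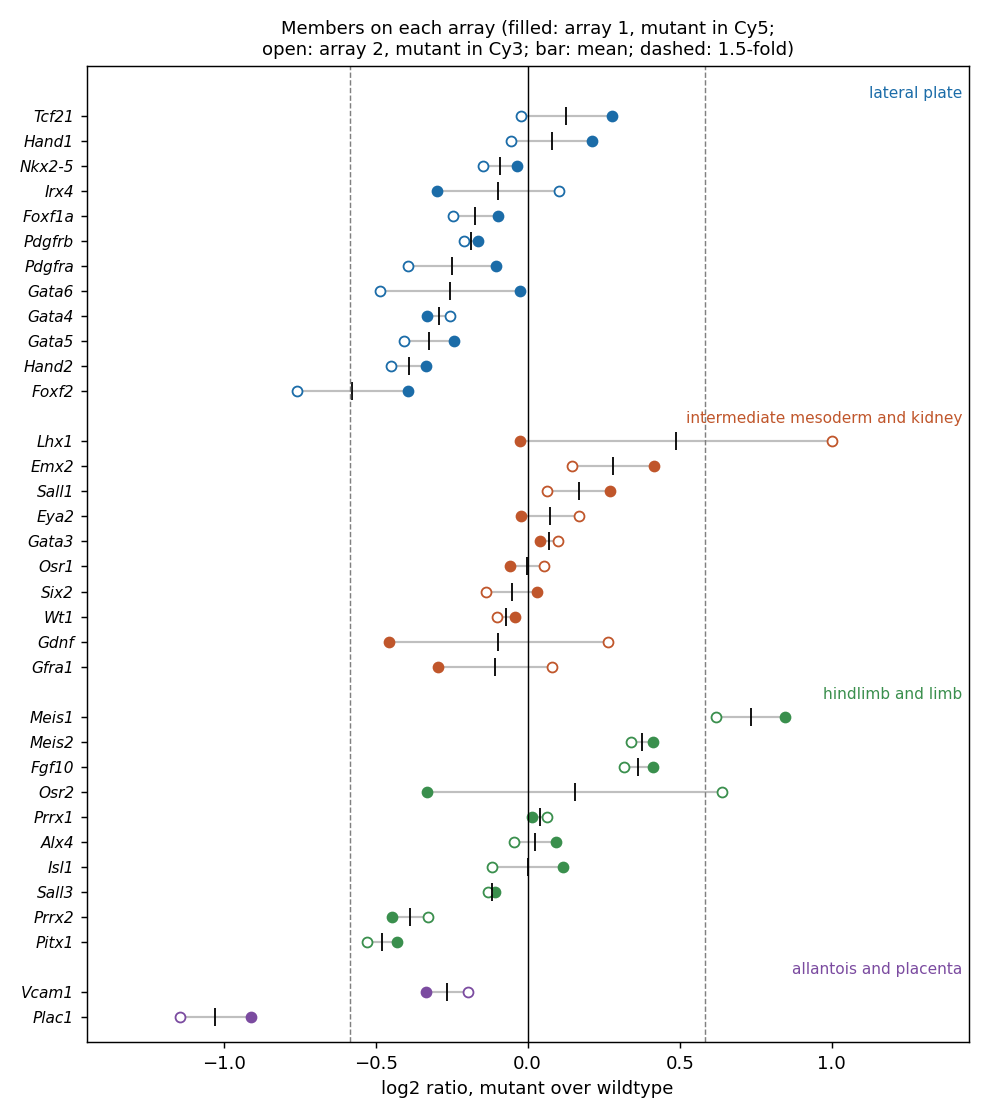
Log2 ratio of mutant over wildtype for each of the 34 detected members (rows, grouped by list) on array 1 (filled) and array 2 (open), with the mean of both as a bar and the 1.5-fold thresholds dashed. Meis1 lies beyond the upper threshold and Plac1 beyond the lower one on both arrays, and Lhx1, Osr2 and Gdnf have the longest lines between arrays.

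Plac1 had the lowest ratio of all members. It is an X-linked gene best known from the trophoblast of the placenta. The normalised log2 signal of Plac1 was 9.18 in the mutant and 10.10 in the wildtype on array 1. On array 2 the Plac1 signal was 9.07 in the mutant and 10.21 in the wildtype. The mutant lay below the wildtype on each array, as for 24.5% of all detected genes. Both genotypes were well above background on each array. The log2 ratio was -0.91 on array 1 and -1.14 on array 2, with a mean of -1.03 ± 0.16 (SD of 2 arrays), which is 2.04-fold lower in the mutant. Of all detected genes, 9 had a lower mean ratio. The probe lies on chromosome X at 45594846 to 45594905.

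RefSeq (GRCm38.p6) lists 2 starts for Plac1. The 250 bases before each start are shown because Plac1 is the member that fell, and the capitals mark matches to TTTAT or its reverse complement ATAAA, the core of the sequence that Cdx proteins bind. The first window is chrX:53114406-53114655 and the second is chrX:53240111-53240360, both on the minus strand.

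Plac1 first window: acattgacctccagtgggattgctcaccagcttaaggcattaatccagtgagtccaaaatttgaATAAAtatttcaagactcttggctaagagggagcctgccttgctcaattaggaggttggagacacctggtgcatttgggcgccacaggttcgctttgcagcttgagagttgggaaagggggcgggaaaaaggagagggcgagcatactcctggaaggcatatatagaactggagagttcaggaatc

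Plac1 second window: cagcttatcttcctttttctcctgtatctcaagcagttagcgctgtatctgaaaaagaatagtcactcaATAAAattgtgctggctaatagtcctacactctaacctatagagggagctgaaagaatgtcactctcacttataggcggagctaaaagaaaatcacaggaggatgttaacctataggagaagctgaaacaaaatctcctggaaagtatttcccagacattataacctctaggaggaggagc

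Each window held 1 match, on the reverse strand, whose first base lay 186 and 181 bases before the start. Such a match was present in 37.3% of 32851 windows of the same length in the table. The longer form TTTATG, searched on both strands and containing the shorter one, was in 10.8% of all windows and in neither Plac1 window. A match is a run of letters and not a measured site.

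X-linked readings were set beside Plac1. Of 779 detected genes on the X chromosome, 7 were lower and 3 were higher past the size rule, which is 1.28%, against 0.459% on the other chromosomes. Plac1 itself is among the 7, so this share is not independent of it. The X-linked genes Cdx4, deleted in the mutant, and Xist also passed as lower. The median ratio of X-linked genes was 0.00 to 2 decimals. For Xist, whose RNA silences an X chromosome in female cells, the mutant was well above background on neither array, and the bound on the fold was at least 3.95-fold lower. The Y-linked genes Ddx3y, Uty and Eif2s3y had mean log2 ratios of 0.58 ± 0.16, 0.50 ± 0.27 and 0.39 ± 0.37, and Usp9y was not detected. The part of embryo sex in the values of Plac1 and the other members was not tested. With 1 pool per genotype it cannot be told apart from genotype. Of 5 detected trophoblast markers, Hand1 of the lateral plate list among them, 0 passed and the median was 0.08. Their summed signal was 1600 and 1375 in the mutant and 1339 and 1225 in the wildtype on arrays 1 and 2. Most of it came from Hand1 and Plac8, with mean log2 intensities of 8.97 and 9.24. Gcm1, Ctsq and Tpbpa were dim, at 6.80, 6.31 and 6.24. The part of trophoblast cells in the Plac1 value was not tested. Plac8 had a ratio of 0.41 ± 0.08 and Gcm1 of 0.13 ± 0.18. Ctsq and Tpbpa, both placental, had -0.12 ± 0.11 and -0.01 ± 0.05. Prl3d1, Prl2c2 and Psg17 had no matching probe and were not analysed here.

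Vcam1, an adhesion molecule that the allantois uses to join the chorion through an integrin made of the Itga4 product, did not pass. The log2 signal of Vcam1 was 7.22 in the mutant and 7.56 in the wildtype on array 1, and 7.31 and 7.50 on array 2. The mutant lay below the wildtype on each array, and the mean log2 ratio was -0.26 ± 0.10, or -0.42 from the scanner ratio. A second Vcam1 probe was not well above background in either genotype. Itga4 had a probe that was not detected. Of the 17 detected companion genes of the allantois and placenta, Cdx4 itself was the 1 that passed, and their median was -0.03. Hoxd13, a posterior Hox gene, had -0.57 ± 0.34 among them, and the allantois and hindlimb gene Tbx4 had -0.12 ± 0.09.

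Meis1 had the highest ratio of all members. It encodes a TALE homeodomain protein that binds DNA with Hox and Pbx proteins and marks the proximal limb. The log2 signal of Meis1 was 10.96 in the mutant and 10.12 in the wildtype on array 1. On array 2 it was 10.86 in the mutant and 10.24 in the wildtype. The mutant lay above the wildtype on each array, as for 23.3% of all detected genes. The log2 ratio was 0.85 on array 1 and 0.62 on array 2, with a mean of 0.73 ± 0.16 (1.66-fold), and 44 of all detected genes had a higher mean. The probe lies on chromosome 11 at 18914185 to 18914244. The call depended on the dye normalization. With each array centred on its median in place of loess, Meis1 had 1.33 on array 1 and -0.03 on array 2, and Plac1 had -0.47 and -1.74, so neither passed on both arrays. The means of the 2 arrays under that centring were 0.65 for Meis1 and -1.10 for Plac1.

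**Figure D2:**
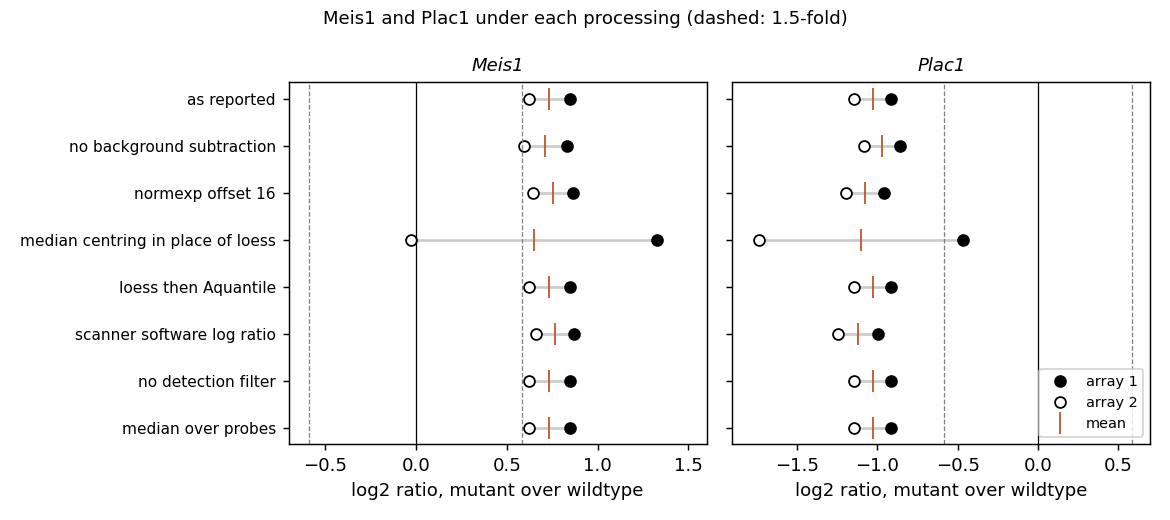
Log2 ratio of mutant over wildtype for Meis1 (left) and Plac1 (right) on array 1 (filled) and array 2 (open), with the mean as a bar, under the reported processing and 7 alternatives (rows), and with the 1.5-fold thresholds dashed. The arrays stay close to each other except with median centring, where they lie 1.33 and -0.03 for Meis1.

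The 250 bases before the Meis1 start are shown because Meis1 is the member that rose (RefSeq GRCm38.p6, chr11:19018970-19019219, minus strand). Neither TTTAT nor TTTATG was found in them on either strand, so the run has no capitals, which says only that these letters are not in this window.

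Meis1: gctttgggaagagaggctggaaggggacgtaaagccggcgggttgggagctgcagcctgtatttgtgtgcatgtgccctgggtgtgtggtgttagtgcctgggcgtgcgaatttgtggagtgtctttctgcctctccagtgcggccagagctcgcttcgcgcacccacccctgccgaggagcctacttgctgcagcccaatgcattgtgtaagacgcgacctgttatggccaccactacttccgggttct

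Promoter windows, 25 in all, were matched for 21 members. The shorter motif was in a window of 8 of them, namely Gdnf, Gfra1, Hand2, Meis2, Pdgfra, Plac1, Prrx1 and Tcf21, and the longer one was in 0 of 21. Over all windows the shares were 37.3% and 10.8%, counted per window and not per gene.

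Meis2, the close relative of Meis1, lay on the same side without passing. Its log2 signal was 8.77 in the mutant and 8.35 in the wildtype on array 1, and 8.44 and 8.10 on array 2. The mutant lay above the wildtype on each array. The mean log2 ratio was 0.38 ± 0.05. Fgf10, the mesenchymal signal that starts limb bud outgrowth, had log2 signals of 7.37 in the mutant and 6.96 in the wildtype on array 1, and 7.33 and 7.02 on array 2. The mutant lay above the wildtype on each array and the mean ratio was 0.36 ± 0.07, but it was 0.66 by the scanner software's own ratio.

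Pitx1, a homeodomain factor that sets hindlimb identity, lay on the other side. The log2 signal of Pitx1 was 10.62 in the mutant and 11.05 in the wildtype on array 1, and 10.60 and 11.13 on array 2. The mutant lay below the wildtype on each array, and the mean ratio was -0.48 ± 0.07 (1.40-fold lower). A dimmer Pitx1 probe gave -0.22, with -0.41 on array 1 and -0.03 on array 2. Prrx2, a homeodomain gene of limb and facial mesenchyme, had log2 signals of 9.35 and 9.47 in the mutant and 9.80 and 9.80 in the wildtype. Its mean ratio was -0.39 ± 0.08, while its paralog Prrx1 had 0.04 ± 0.03 at a dim signal, 0.24 from the scanner ratio and 0.15 with median centring. The difference between the paralogs was not tested.

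The other limb genes lay nearer to 0 or differed between arrays. Isl1, a LIM homeodomain gene of the early hindlimb field, had 0.12 on array 1 and -0.12 on array 2. Alx4, a gene of the anterior limb margin, had 0.02 ± 0.10, and the zinc finger gene Sall3 had -0.12 ± 0.02. Osr2, an odd-skipped zinc finger gene, had -0.33 on array 1 and 0.64 on array 2, so its mean of 0.15 is smaller than its SD of 0.69. Over the 10 limb genes 4 lay above 0 on both arrays, 3 below on both and 3 had arrays of opposite sign. Of 20 detected companion limb genes, Hoxa10 fell (log2 ratio -1.05 ± 0.01, 2.07-fold lower) and the other 19 did not pass. Irx3, a homeobox gene of limb and neural tube, had 0.46 ± 0.25, and their median was -0.02. The Hox cofactor genes Pbx2 and Pbx3, whose products pair with Meis proteins, had -0.20 ± 0.37 and -0.04 ± 0.18.

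**Figure D3:**
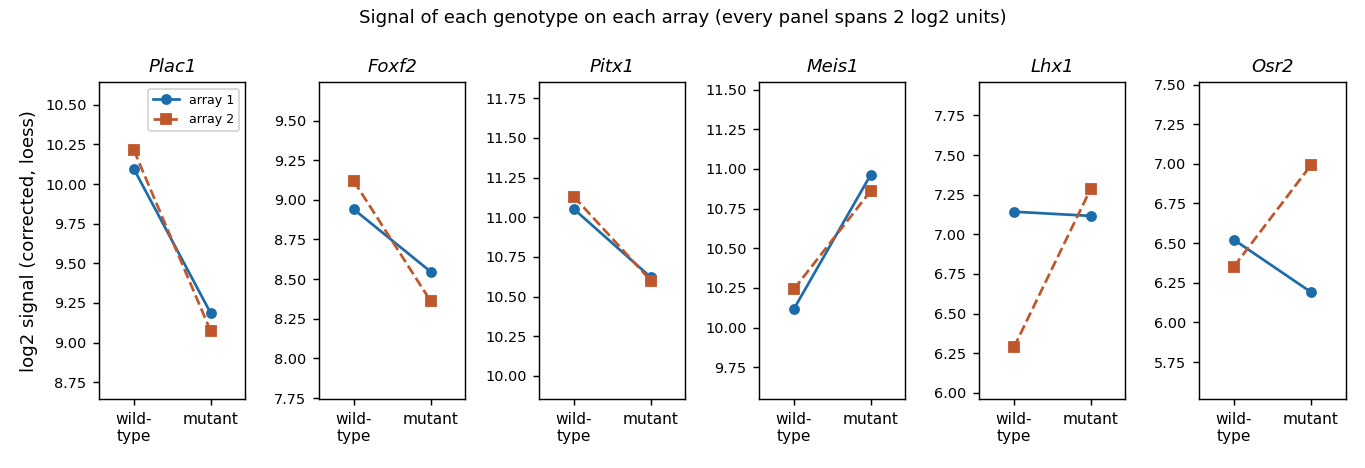
Normalised log2 signal of the wildtype and mutant pools on array 1 (circles, solid line) and array 2 (squares, dashed line) for 6 members, with every panel spanning 2 log2 units on its own axis. Lines fall on both arrays for Plac1, Foxf2 and Pitx1 and rise on both for Meis1, while for Lhx1 and Osr2 the slopes of the arrays differ.

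In the lateral plate, none of the 12 members passed, but 9 lay below 0 on both arrays and 0 lay above on both. That is 9 of 12 against 24.5% of all detected genes, and the list median was -0.13 on array 1 and -0.25 on array 2. By the median over probes, 9 lay below 0 on both arrays and 1 above. The members were chosen with earlier results of these data known, so these counts only describe the list. Of 25 detected lateral plate companions, 10 lay below 0 on both arrays and 8 above, with a median of -0.01. With median centring the median stayed at -0.22 and the count below 0 on both arrays was 3 of 12, against 8.51% of all genes. In these bulk pools, fewer cells of a type and less RNA per cell cannot be told apart.

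Foxf2, a forkhead factor of the mesoderm around the gut, was the lowest lateral plate gene. The log2 signal of Foxf2 was 8.55 in the mutant and 8.94 in the wildtype on array 1, and 8.36 and 9.12 on array 2. The mutant lay below the wildtype on each array, and the mean ratio was -0.58 ± 0.26, which is 1.49-fold lower. Of all detected genes 101 had a lower mean. Foxf2 passed 1.5-fold on array 2 but not on array 1, where it had -0.39. Its paralog Foxf1a, which is required in extraembryonic and splanchnic mesoderm, had -0.17 ± 0.11 at a dim signal.

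Hand2, a helix-loop-helix transcription factor of lateral plate, heart and posterior limb, had log2 signals of 9.36 in the mutant and 9.69 in the wildtype on array 1. On array 2 they were 8.89 and 9.34, so the mutant was lower within each array. The mean ratio of Hand2 was -0.39 ± 0.08, and its dimmer probe gave -0.17. Its relative Hand1, which also acts in trophoblast, had 0.21 on array 1 and -0.05 on array 2. By this brighter probe Hand1 lay on both sides of 0. Its dimmer probe gave 0.11 on array 1 and 0.30 on array 2, with a mean of 0.21.

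The zinc finger genes Gata4, Gata5 and Gata6, which act in heart and gut endoderm as well as in lateral plate, all lay below 0 on both arrays. Gata5 had -0.32 ± 0.12 and its dimmer probe -0.16. Gata4 had -0.29 ± 0.05 at a dim signal, and -0.60 by the scanner software's ratio. Gata6 had -0.02 on array 1 and -0.49 on array 2, so its size rests on array 2. The receptor genes Pdgfra and Pdgfrb, which read platelet-derived growth factors in mesenchyme, had -0.25 ± 0.21 and -0.19 ± 0.03. The second Pdgfrb probe was dimmer and gave 0.03.

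The remaining lateral plate genes are best known from heart and visceral mesoderm. Nkx2-5, a cardiac homeobox gene, had -0.09 ± 0.08, and the ventricular gene Irx4 had -0.30 on array 1 and 0.10 on array 2. Tcf21, a factor of visceral and epicardial mesoderm, had 0.28 on array 1 and -0.02 on array 2. Heart muscle markers were measured beside them. Of 5 with a probe, 3 were detected and none passed, with Myl7 at 0.11 ± 0.02 and Tnni1 at 0.07 ± 0.08, while Nppa and Actc1 were not detected.

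Vessel and blood markers share the posterior mesoderm with the lateral plate. Among 13 detected endothelial markers, Cldn5 (2.09-fold) and Sox18 (1.62-fold) fell, 12 had negative ratios on each array, and the median was -0.42. The summed endothelial signal was 9631 and 8617 in the mutant and 13660 and 11695 in the wildtype on arrays 1 and 2, and Erg was not detected. The largest share of that sum came from Egfl7 (-0.44 ± 0.08), at a mean log2 intensity of 12.59. Of 7 detected primitive blood markers none passed, with Tal1 at -0.49 ± 0.20, Alas2 at -0.23 ± 0.09 and a median of -0.10. Of the 7, 4 lay below 0 on both arrays and 0 above. Their summed signal was 20618 and 20311 in the mutant and 19775 and 21010 in the wildtype, and most of it came from the globin gene Hba-x (0.03 ± 0.07). The part of these cells in the lateral plate values was not tested.

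**Figure D4:**
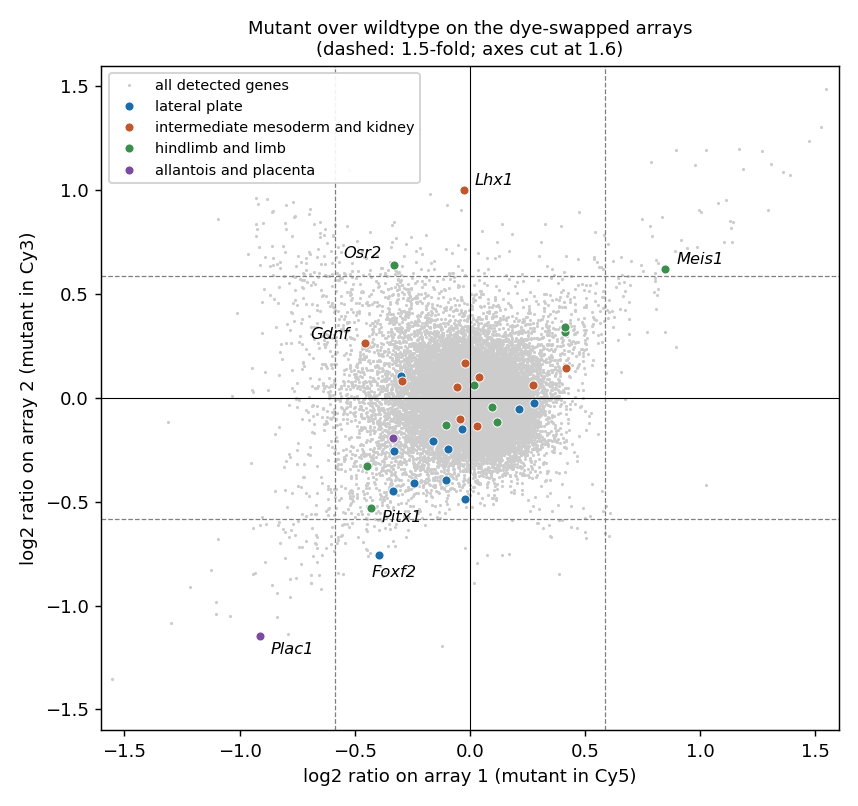
Log2 ratio of mutant over wildtype on array 1 (x axis) against array 2 (y axis) for all 25933 detected genes (grey) and the members (coloured by list), with 1.5-fold dashed and the axes cut at 1.6. Meis1 and Plac1 lie in the outer corners, 9 of the 12 lateral plate genes lie below 0 on both axes, and Lhx1 lies off the diagonal near 0 on array 1.

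In the intermediate mesoderm and kidney list, none of the 10 detected members passed, 3 lay above 0 on both arrays, 1 lay below on both and 6 had arrays of opposite sign. Of the 10, 7 had a mean log2 intensity below 7, against 3 of 12 in the lateral plate and 3 of 10 in the limb list. The SD between arrays pooled over the list was 0.31, against 0.19 over the lateral plate genes.

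Lhx1, a LIM homeodomain gene of the nephric duct, shows this spread. The log2 signal of Lhx1 was 7.12 in the mutant and 7.14 in the wildtype on array 1, and 7.29 and 6.29 on array 2. The ratio was -0.03 on array 1 and 1.001 on array 2. The mean of 0.49 is smaller than its SD of 0.73. Osr1, among the earliest genes of the intermediate mesoderm, had -0.06 on array 1 and 0.05 on array 2.

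Emx2, a homeobox gene of the urogenital epithelium and the forebrain, had 0.42 on array 1 and 0.14 on array 2, and a mean of 0.61 by the scanner software's ratio against 0.28 here. Sall1, a zinc finger gene of the metanephric mesenchyme, had 0.17 ± 0.15, and its dimmer probe gave 0.27. Gata3, a zinc finger gene of the nephric duct, had 0.07 ± 0.04. Wt1, a zinc finger gene of the kidney and the coelomic lining, had -0.07 ± 0.04 and was the 1 member of the list below 0 on both arrays, but its mean was 0.07 with median centring and 0.05 from the scanner ratio. Eya2, a transcriptional coactivator gene, had 0.07 ± 0.14, and the nephron progenitor gene Six2 had -0.05 ± 0.12, or 0.08 with median centring.

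Genes of the signal that draws out the ureteric bud were measured in part. Gdnf and Gfra1 were dim, at mean log2 intensities of 6.85 and 6.32. Gdnf, the ligand, had log2 signals of 6.84 in the mutant and 7.30 in the wildtype on array 1, and 6.76 and 6.49 on array 2. The arrays disagreed, with ratios of -0.46 and 0.27. Gfra1, the co-receptor, was well above background in the wildtype on both arrays and in the mutant on neither. Its measured ratio was -0.30 on array 1 and 0.08 on array 2, so no direction is given for it, and the scanner software's ratio was -0.63 as a mean.

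Of 22 detected companion genes of the intermediate mesoderm and kidney, 2 rose and 1 fell. Foxc2 and Foxc1, forkhead factors of paraxial and intermediate mesoderm, rose by 2.56-fold and 2.27-fold (log2 ratios 1.35 ± 0.17 and 1.18 ± 0.02). Hoxd11, a Hox gene of the metanephric kidney and limb, fell by 1.62-fold (-0.69 ± 0.04). The median of these companions was 0.07. The renal paired box genes Pax2 and Pax8 had -0.01 ± 0.46 and 0.21 ± 0.14. None of the 25 detected lateral plate companions passed, and their median was -0.01. Snai1, a repressor of epithelial character, had -0.45 ± 0.20, and Pdgfb, a ligand of the receptors above, had -0.35 ± 0.15. On the other side Ptch1, the Hedgehog receptor gene, had 0.30 ± 0.10 and the inhibitor of differentiation gene Id3 had 0.29 ± 0.13. Of these companions 10 lay below 0 on both arrays and 8 above. Bmp4, a signal of the lateral plate and allantois, had 0.12 on array 1 and -0.34 on array 2.

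Paraxial mesoderm and neural tube markers were read beside Meis1 and the Foxc genes. Of 9 detected paraxial markers, Meox1, Ripply2, Tcf15, Foxc2 and Dll1 rose, and the median was 0.67. Tbx6 (0.06 ± 0.16), Pax3 (0.02 ± 0.04), Mesp2 (-0.02 ± 0.02) and Msgn1 (-0.12 ± 0.03) did not pass. Uncx, which marks formed somites, was not detected. The summed paraxial signal was 10418 and 9636 in the mutant and 7682 and 7108 in the wildtype on arrays 1 and 2. Of 5 detected neural tube markers Sox2 rose (0.81 ± 0.08) and the median was 0.37. Sox1 had 0.04 on array 1 and 0.70 on array 2, and Pax6 (-0.07 ± 0.04) and Nkx6-1 (-0.09 ± 0.11) lay below 0 on both arrays. The summed neural signal was 2602 and 2897 in the mutant and 2332 and 2544 in the wildtype, with the largest share from Nkx6-1. Olig2 and Sox3 were not detected. The part of these tissues in the Meis1 value was not tested.

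**Figure D5:**
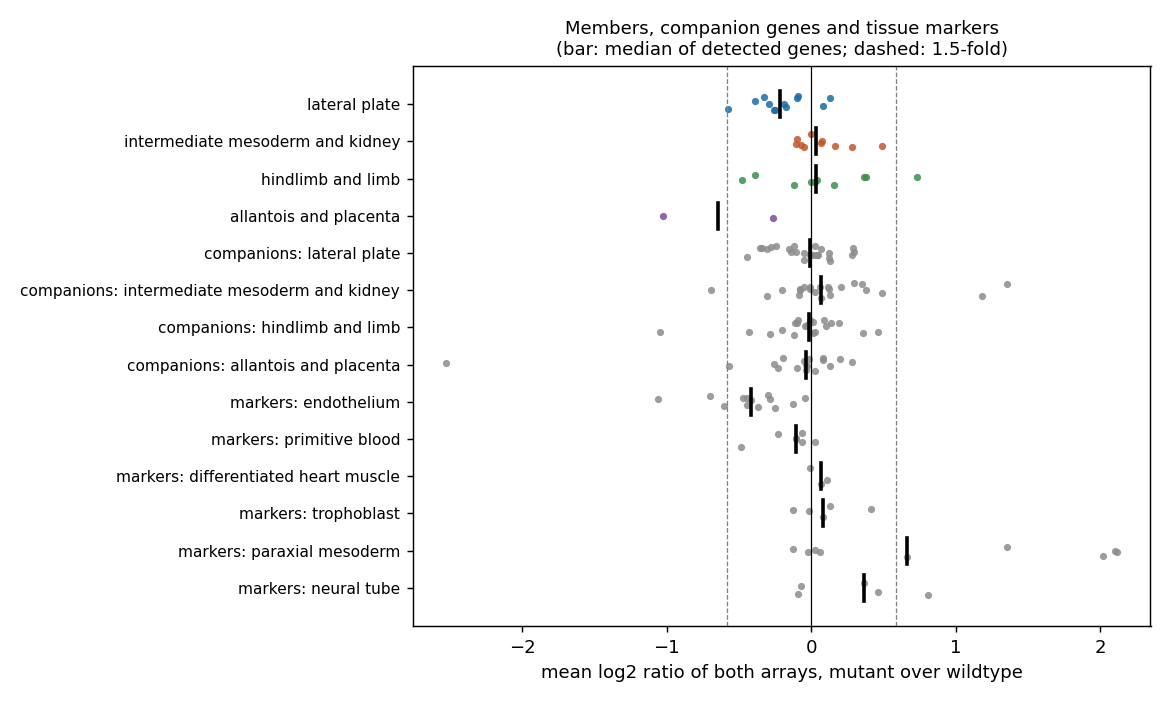
Mean log2 ratio of mutant over wildtype for each detected gene (points) of the 4 member lists (coloured), the companion lists and the tissue marker lists (grey), with the list median as a bar and 1.5-fold dashed; vertical scatter within a row has no meaning. The lateral plate median of -0.22 and the endothelial median of -0.42 lie left of 0 and the paraxial median of 0.67 lies right of it.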

How the data were processed

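The deposited intensity of each channel is a spot's mean brightness, beside its local background, neither of them corrected, per the file headers. As an alternative served the deposited log10 ratio, in which the scanner program had already removed a spatial trend and a LOWESS dye trend, per the file headers. Its version is 9.5.3 in the submitters' processing notes and 7.5.1 in the file headers.

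Mean signals were corrected with normexp (offset 50, all 43430 spots) and normalized by loess within each array in limma 3.58.1 under R 4.3.3, with control spots at weight 0. An offset shrinks ratios of dim genes. Non-uniform gene spots were left out (205 and 90). The dye labels set the direction, mutant over wildtype. Spots of a probe were averaged, and the brightest detected probe stood for a gene. The size rule was 1.5-fold in 1 direction on each array. A bound sets the bright pool against the detection limit after Aquantile or, where higher, the dim pool's own signal. Summed signals add the normalised linear signals of a marker list. Signals were not scaled between the arrays, except under Aquantile, so genotypes are compared within each array. Of 41013 probes, 19435 were named by accession, 3400 by symbol and 2989 by synonym on the same chromosome through RefSeq GRCm38.p6, and 33 of the 35 members by accession. The members and lists were chosen with earlier results of these data known. All members are named, and of other lists the genes past the rule or the largest to make 2; T, Tbx6, Cdx2, Tbx4, Pbx2, Pbx3, Pax2, Pax8, Bmp4, Actc1, Nppa and Itga4 were named beyond this rule, after their values were seen. So were Ptch1, Id3, Sox1, Pax6, Nkx6-1, Ctsq, Tpbpa, Hba-x, Pax3, Mesp2, Msgn1 and Egfl7. Uncx, Erg, Olig2, Sox3 and trophoblast genes without a value are named as such. The steps were tested on simulated arrays with changes of at least 2-fold in brighter genes, so smaller changes and dim genes were not covered. The alternatives changed background correction, normalization, ratio source, detection filter, probe rule, fold and array.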

Additional observations from a re-analysis of the deposited data

How the results depend on the processing

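No test, paired or unpaired, was run because there was 1 pool per genotype. Each ratio already pairs the genotypes within an array. The number of members past the size rule was 2, with 1 higher and 1 lower, and stayed so without background subtraction, with an offset of 16, with Aquantile, from the scanner ratio, without a detection filter and by the median over probes. It was 0 with median centring and 0 at 2-fold. At 1.3-fold it was 4, with 1 higher and 3 lower. On single arrays it ranged from 2 to 5, with 1 to 3 higher and 1 to 2 lower, since without array 1 Lhx1, Osr2 and Foxf2 passed too. With median centring 6 members lay below 0 on both arrays and 4 above, against 15 and 7. The median over all members of -0.08 was -0.11 with an offset of 16, -0.033 with median centring and -0.048 from the scanner ratio, and ranged from -0.077 to -0.050 on single arrays. The lateral plate median ranged from -0.25 to -0.13 on single arrays. The kidney median ranged from -0.025 to 0.090 and the limb median from 0.0094 to 0.055 on single arrays, and the limb median was 0.13 from the scanner ratio. The cause of these changes was not tested, except that fewer arrays or another fold make the rule looser or stricter. The mean ratio of all 34 members kept its sign without background subtraction, of 33 with an offset of 16, and of 30 each under median centring and from the scanner ratio. Signal over background limits the 13 members with a mean log2 intensity below 7.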
